A study of Mus musculus with 8 samples.

Results

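The 10 genes described here encode the receptor for ciliary neurotrophic factor (CNTF), the kinases and the transcription factor it acts through, and genes that respond to it. They were chosen by name, as Cntfr, Lifr, Il6st, Osmr, Jak1, Jak2, Stat3, Socs3, Socs2 and Bcl3, and all 10 were found among the 24346 genes of the deposited table. RNA-seq was performed on 8 samples of cultured primary mouse oligodendrocyte precursor cells (OPCs), which were given 15 nM T3, the active thyroid hormone, and 10 ng/mL CNTF for 1 day to become immature oligodendrocytes (iOLs). All 8 samples therefore received CNTF, and none without it was compared. The OPCs came from brains of mice at postnatal day 7, were purified by immunopanning on an antibody to CD140a, the protein of Pdgfra, and were expanded in medium with PDGF-AA and NT-3. The 4 samples labelled as knockout (Med23-/- iOLs) came from Med23 fl/fl mice with an Olig1-Cre allele, in which Cre is made in the oligodendrocyte lineage, and the 4 labelled as wild type (Med23+/+ iOLs) from control mice, whose counterparts elsewhere in the study are Med23 fl/fl littermates without Cre, so that the floxed alleles may be shared by all 8 samples. Sex, strain, whether the samples came from separate animals or cultures and whether animals were pooled are not given in the sources used here, so p-values measure the spread between these 8 samples, part of which may be technical.

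CNTF binds CNTFRα, encoded by Cntfr, which is tethered to the membrane by a lipid anchor and has no signalling domain of its own. The complex then recruits the LIF receptor (Lifr) and gp130 (Il6st), whose bound kinases JAK1 and JAK2 phosphorylate the receptors and then STAT3, which moves to the nucleus and switches on genes such as Socs3. The SOCS3 protein binds gp130 and JAKs and shuts the signal down, so Socs3 RNA is widely read as a sign of recent STAT3 activity. In culture, CNTF and the related cytokine LIF support the survival and maturation of oligodendrocytes, and in neural precursors the same pathway favours astrocyte genes.

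Levels are given as FPKM, a read density scaled for transcript length and library size. Differences between genotypes are on the log2(FPKM + 1) scale, Med23-/- minus Med23+/+, which understates the change of weakly expressed genes. They were tested with limma over the 12328 genes whose mean reached 1 FPKM, and adjusted p means the Benjamini-Hochberg value over all of these. Read counts were not used here and depth is unknown, but 1 read was worth between 0.742 and 1 times its worth in Med23+/+ replicate 1, judged from the spacing of values under 0.3 FPKM. The level of Med23 itself was 12.5 ± 0.225 FPKM in the Med23+/+ group against 8.26 ± 0.247 FPKM in the Med23-/- group (SD, n = 4 each). The genotypes did not overlap, and the transcript remained at 0.658 times its Med23+/+ level. This RNA level does not measure the protein, whose loss the paper reports from western blots of primary OPCs of the conditional knockout mice. Oligodendrocyte lineage genes were present in all 8 libraries, the 11 markers summing to between 1590 and 2210 FPKM.

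Of the 10 genes, 8 were expressed well enough to be tested, and each of these had a mean above 1 FPKM in both genotypes. Lifr, Jak1, Stat3, Socs3 and Socs2 were higher in Med23-/- iOLs by adjusted p, and no member was lower. The background was 15.9% of all genes tested higher and 14.1% lower. Lifr, Jak1, Stat3 and Socs3 also had every Med23-/- library above every Med23+/+ library, a pattern seen in 16.3% of all genes tested in this direction and in 15.3% in the other. The median log2 difference of the 8 tested members was 0.48, against -0.01 over all genes tested. The changes were moderate, and none of the 5 passed a fold change of 2 on this scale together with the adjusted p, as 2.98% of all genes did upwards and 1.75% downwards. Cntfr, Il6st and Jak2 did not pass the test, and Osmr and Bcl3 were near 0.

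**Figure D1:**
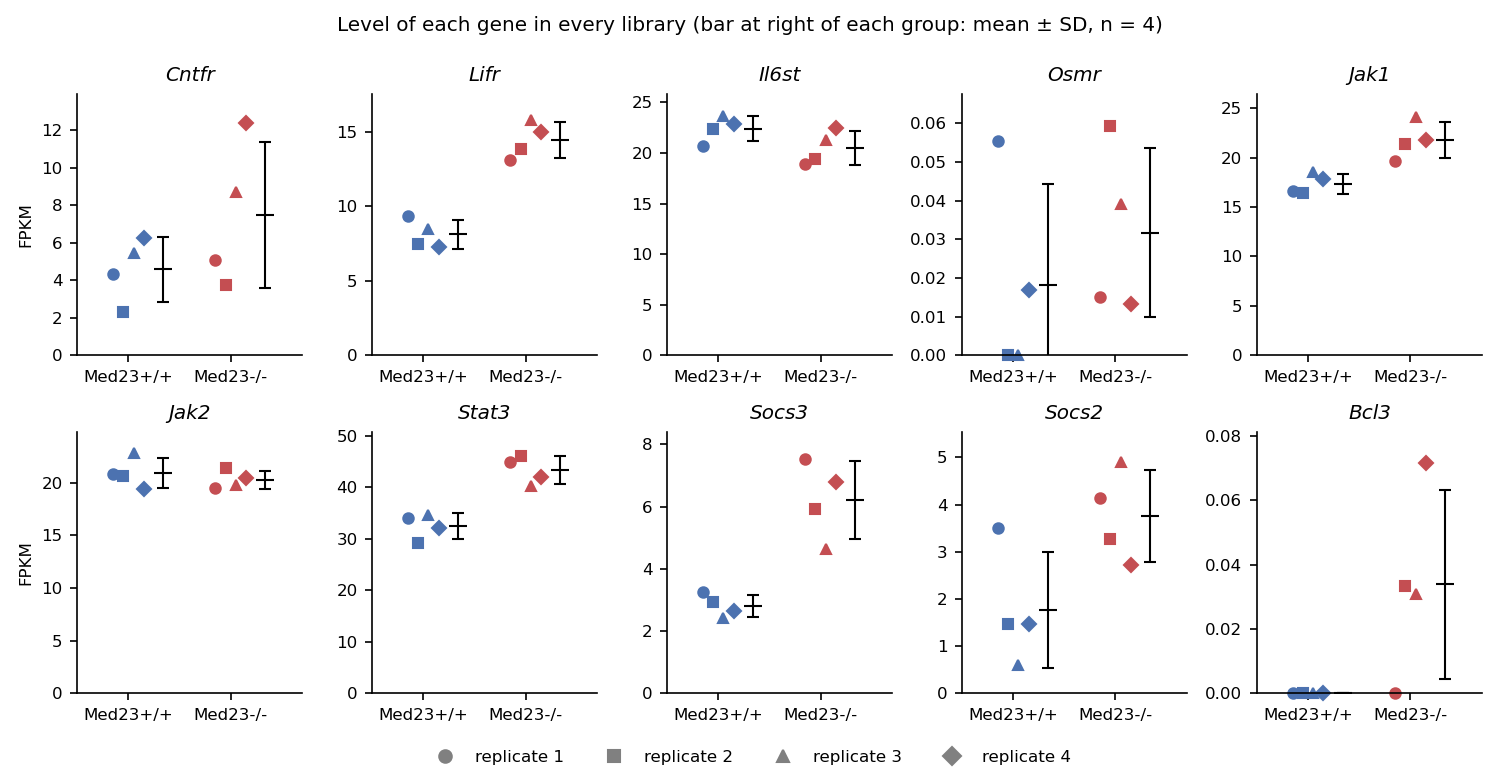
Level in FPKM (linear axis from 0, scaled separately for each gene) of the 10 genes in the 4 Med23+/+ (blue) and 4 Med23-/- (red) libraries, with marker shapes for the replicate number and a bar for mean ± SD, which for Osmr in Med23+/+ runs below the axis and ends at 0. Lifr, Jak1, Stat3 and Socs3 separate the genotypes, whereas Cntfr, Il6st, Jak2 and Socs2 overlap, and Osmr and Bcl3 stay under 0.08 FPKM.

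The promoters of the 4 members whose libraries did not overlap are shown because these genes are the ones that separated the genotypes. Each is the RefSeq window on GRCm38.p6, the build also called mm10, from 250 bases before to 50 after a transcription start, read 5′ to 3′ on the strand of the gene. The windows are chr11:117969317-117969616 for Socs3 (minus strand), chr15:7129322-7129621 for Lifr (plus strand, the first of its 2 windows), chr11:100939491-100939790 for Stat3 (minus strand) and chr4:101265174-101265473 for Jak1 (minus strand). Capitals mark TTCNNNGAA, the palindrome that STAT proteins bind, and GGGCGG or its reverse complement CCGCCC, the core of the GC box that Sp1 binds. The GC box was searched because the study examined Sp1.
Socs3: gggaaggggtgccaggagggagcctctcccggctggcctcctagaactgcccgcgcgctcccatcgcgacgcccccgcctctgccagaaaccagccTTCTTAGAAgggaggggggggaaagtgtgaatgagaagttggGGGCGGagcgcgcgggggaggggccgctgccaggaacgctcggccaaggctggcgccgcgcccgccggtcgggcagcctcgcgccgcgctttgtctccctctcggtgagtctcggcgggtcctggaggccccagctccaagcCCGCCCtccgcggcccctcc
Lifr: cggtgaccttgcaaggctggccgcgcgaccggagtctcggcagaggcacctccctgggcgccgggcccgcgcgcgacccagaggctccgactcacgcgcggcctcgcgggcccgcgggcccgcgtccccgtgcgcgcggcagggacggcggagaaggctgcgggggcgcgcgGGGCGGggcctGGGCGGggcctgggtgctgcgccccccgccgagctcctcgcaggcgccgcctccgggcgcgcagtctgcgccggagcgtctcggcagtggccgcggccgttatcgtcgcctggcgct
Stat3: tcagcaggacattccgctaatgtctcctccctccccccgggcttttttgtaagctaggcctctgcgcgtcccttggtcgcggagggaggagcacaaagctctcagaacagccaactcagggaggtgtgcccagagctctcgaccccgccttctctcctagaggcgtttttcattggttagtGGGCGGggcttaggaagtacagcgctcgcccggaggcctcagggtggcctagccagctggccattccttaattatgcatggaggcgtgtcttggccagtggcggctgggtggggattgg
Jak1: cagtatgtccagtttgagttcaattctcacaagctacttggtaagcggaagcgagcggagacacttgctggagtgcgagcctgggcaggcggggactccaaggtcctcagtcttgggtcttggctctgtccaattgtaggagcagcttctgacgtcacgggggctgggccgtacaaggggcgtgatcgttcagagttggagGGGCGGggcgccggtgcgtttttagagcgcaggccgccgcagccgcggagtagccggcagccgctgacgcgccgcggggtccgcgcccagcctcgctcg
The Socs3 window held TTCTTAGAA, starting at position -154 from the transcription start. It was the only window among 15 windows of the 9 members with an entry (all but Socs2), some of which overlap for Cntfr, to hold TTCNNNGAA on either strand, and 8.30% of all 32851 promoter windows in the table hold it. The stricter TTCCNGGAA was in none of the 15 windows and in 1.15% of all windows. GGGCGG on either strand was in 12 of the 15 windows, covering all 9 members including the near-silent Osmr and Bcl3, and in 35.7% of all windows. These matches describe letters in a window and do not show binding.

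Among the receptor genes, Lifr rose in Med23-/- iOLs. Lifr (chr15:7090614-7197489, plus strand, mm10) encodes the subunit that LIF binds directly and that joins gp130 to pass on the CNTF signal. It read 9.35, 7.46, 8.45 and 7.24 FPKM across Med23+/+ replicates 1 to 4, against 13.1, 13.8, 15.8 and 15.0 FPKM across Med23-/- replicates 1 to 4. The lowest Med23-/- value was thus above the highest Med23+/+ value, and the means were 8.12 ± 0.974 and 14.4 ± 1.18 FPKM (SD, n = 4 each). The log2 difference was 0.76 (95% interval 0.54 to 0.98, limma adjusted p = 0.000467), a ratio of 1.78 between the plain means.

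Il6st (chr13:112464070-112510086, plus strand), the gene of gp130, the signalling subunit shared by the whole cytokine family, was the most abundant receptor gene in both genotypes. It read 20.7, 22.4, 23.7 and 22.9 FPKM across Med23+/+ replicates 1 to 4, against 18.9, 19.4, 21.3 and 22.5 FPKM across Med23-/- replicates 1 to 4. The groups overlapped, and the log2 difference of -0.12 had an interval from -0.30 to 0.05 (limma adjusted p = 0.275), so that neither no change nor a fall of 0.30 was outside it. Since Lifr rose, the ratio of Lifr to Il6st FPKM went from 0.364 ± 0.0601 to 0.704 ± 0.0294 (SD, n = 4 each). Its Med23+/+ libraries ran from 0.316 to 0.451 and its Med23-/- libraries from 0.669 to 0.740, without overlap.

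Cntfr (chr4:41657498-41697089, minus strand), the gene of the subunit that binds CNTF itself, was the least abundant of the 3 parts of the CNTF receptor in both genotypes. It read 4.34, 2.29, 5.47 and 6.26 FPKM across Med23+/+ replicates 1 to 4, against 5.07, 3.73, 8.71 and 12.4 FPKM across Med23-/- replicates 1 to 4. The means were 4.59 ± 1.73 and 7.48 ± 3.90 FPKM (SD, n = 4 each), and the groups overlapped. The log2 difference was 0.55 with an interval from -0.21 to 1.30 (limma adjusted p = 0.256), which includes both no change and a rise of more than 2-fold. In both genotypes replicate 2 was lowest, then replicate 1, replicate 3 and replicate 4. Within replicates 1 and 2 the log2 difference was 0.36, and within replicates 3 and 4 it was 0.74.

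Neuron marker genes moved in the same direction as the members that rose, and Cntfr is itself a gene of many neurons. Of a list of 10 markers, 9 were tested, of which 8 were higher in Med23-/- iOLs and none was lower. Over all genes tested, 15.9% were higher and 14.1% lower. The list summed to between 208 and 228 FPKM in Med23+/+ and between 298 and 386 FPKM in Med23-/- libraries. Map2 alone made up 149 to 178 FPKM of the Med23+/+ sums and 192 to 220 FPKM of the Med23-/- sums. Its log2 difference was 0.32, against a median of 1.05 for the tested markers. The 2 Med23-/- libraries with the most Cntfr, replicates 3 and 4, also had the highest neuron marker levels, 4.13 and 4.10 as a mean log2(FPKM + 1), against 3.86 and 3.49 in replicates 1 and 2. Among the Med23+/+ libraries the highest marker mean, 3.23, was in replicate 1, which did not have the most Cntfr. Astrocyte markers summed to between 249 and 304 FPKM in Med23+/+ and between 160 and 207 FPKM in Med23-/- libraries, with 4 of 10 tested lower and 2 higher. S100b alone made up 105 to 161 FPKM of the Med23+/+ sums and 9.31 to 23.6 FPKM of the Med23-/- sums. Sox9, also on this list, rose from 6.68 ± 1.25 to 49.1 ± 16.3 FPKM (SD, n = 4 each), so the sum does not describe the list as a whole. Plates coated with BSL1 had been used to remove endothelial cells and microglia before the OPCs were selected. The 10 microglia markers summed to 1.06 to 2.34 FPKM in Med23+/+ and 2.38 to 3.46 FPKM in Med23-/- libraries, with none high enough to be tested. The 10 endothelial and mural markers summed to 1.73 to 2.73 FPKM in Med23+/+ and 3.82 to 7.49 FPKM in Med23-/- libraries. Of the 2 tested, Kdr was higher (limma adjusted p = 0.0398). Its libraries overlapped, at 0.332 to 0.963 FPKM in Med23+/+ and 0.879 to 2.69 FPKM in Med23-/- iOLs. Both sums were thus low and higher in Med23-/- libraries without overlap, though narrowly for microglia. Below 1 FPKM in every library were 9 of the microglia markers and 7 of the endothelial and mural markers. In such bulk RNA, fewer cells of a type and less RNA per cell cannot be told apart, and the part of these other cell types in the changes of the 10 genes was not tested.

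**Figure D2:**
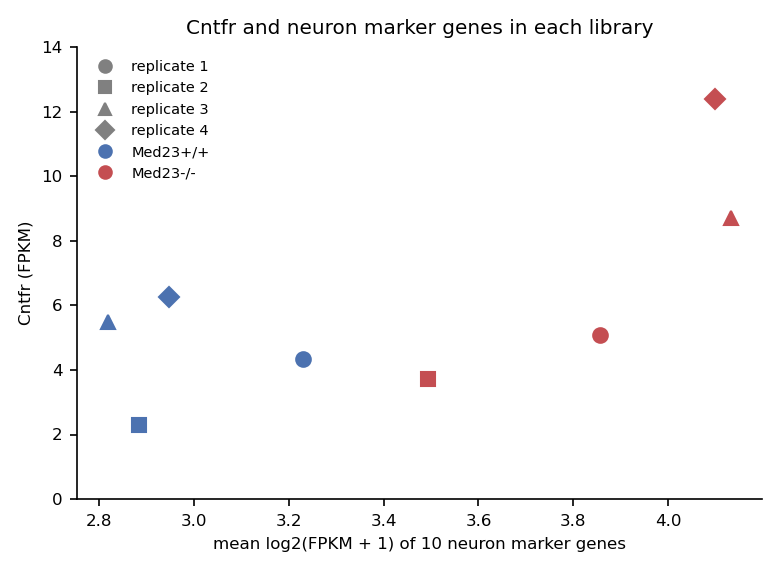
Cntfr level (FPKM, vertical) against the mean log2(FPKM + 1) of 10 neuron marker genes (horizontal) in each of the 8 libraries, with blue for Med23+/+, red for Med23-/- and shapes for the replicate number. Med23-/- replicates 3 and 4 stand highest on both axes, while the Med23+/+ libraries show no such order.

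Osmr (chr15:6813577-6874969, minus strand), which encodes the receptor subunit that joins gp130 to bind oncostatin M, was near 0 in all libraries. It had 0.0554 and 0.0170 FPKM in Med23+/+ replicates 1 and 4, is listed at 0 in replicates 2 and 3, and had 0.0150, 0.0593, 0.0392 and 0.0133 FPKM in the Med23-/- libraries. These values were too low to be compared.

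Of the kinase genes, Jak1 rose and Jak2 did not pass the test. Jak1 (chr4:101152367-101265282, minus strand) read 16.6, 16.4, 18.5 and 17.8 FPKM across Med23+/+ replicates 1 to 4, against 19.7, 21.4, 24.1 and 21.8 FPKM across Med23-/- replicates 1 to 4. The groups did not overlap, with means of 17.3 ± 0.988 and 21.8 ± 1.85 FPKM (SD, n = 4 each) and a log2 difference of 0.31 (95% interval 0.13 to 0.49, limma adjusted p = 0.0182). An exon of Jak1 overlaps one of Raver2 on the opposite strand, and whether the counting used strand is not given in the sources used here. Raver2 had 2.09 to 3.07 FPKM over the 8 libraries, well under Jak1.

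Jak2 (chr19:29251828-29313080, plus strand) read 20.8, 20.6, 22.8 and 19.4 FPKM across Med23+/+ replicates 1 to 4, against 19.5, 21.4, 19.8 and 20.4 FPKM across Med23-/- replicates 1 to 4. Its log2 difference was -0.04 with an interval from -0.20 to 0.12 (limma adjusted p = 0.727), whose upper end lies below the 0.31 of Jak1. The ratio of Jak2 to Jak1 FPKM ran from 1.09 to 1.25 in Med23+/+ and from 0.819 to 0.998 in Med23-/- libraries, without overlap. Jak2 was thus above Jak1 in each Med23+/+ library. In Med23-/- iOLs it was nearly level with Jak1 in replicates 1 and 2 (ratios 0.992 and 0.998). It was below Jak1 in replicates 3 and 4 (0.819 and 0.938).

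Stat3 (chr11:100885098-100939540, minus strand), the transcription factor gene of the pathway and known to be among its own targets, was the most abundant of the 10 in both genotypes. It read 34.1, 29.1, 34.6 and 32.0 FPKM across Med23+/+ replicates 1 to 4, against 44.8, 46.1, 40.2 and 42.0 FPKM across Med23-/- replicates 1 to 4. The groups did not overlap, and the means of 32.5 ± 2.52 and 43.3 ± 2.67 FPKM (SD, n = 4 each) gave a log2 difference of 0.40 (95% interval 0.22 to 0.59, limma adjusted p = 0.00499). Stat3 shares exon bases with Stat5a on the opposite strand, but Stat5a had at most 1.12 FPKM in any library.

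The feedback gene Socs3 rose in Med23-/- iOLs, and its log2 difference was above that of the other tested members with a pseudocount of 1 and all libraries. Socs2 stood above it with a pseudocount of 0.1 (1.25 against 1.10). The same was seen without Med23+/+ replicate 1 (1.13 against 0.96) and without Med23-/- replicate 4 (0.98 against 0.87). Socs3 (chr11:117966079-117970047, minus strand) read 3.25, 2.93, 2.41 and 2.66 FPKM across Med23+/+ replicates 1 to 4, against 7.52, 5.92, 4.63 and 6.80 FPKM across Med23-/- replicates 1 to 4. All Med23-/- libraries were above all Med23+/+ libraries, with means of 2.81 ± 0.360 and 6.22 ± 1.25 FPKM (SD, n = 4 each). The log2 difference was 0.91 (95% interval 0.60 to 1.22, limma adjusted p = 0.00119), or 1.88-fold on this scale, while the ratio of the plain means was 2.21. It was 0.91 within replicates 1 and 2 and also 0.91 within replicates 3 and 4. Socs3 rose by more than Stat3, and the ratio of Socs3 to Stat3 FPKM went from between 0.0696 and 0.101 in Med23+/+ to between 0.115 and 0.168 in Med23-/- libraries.

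Socs2 (chr10:95385362-95417180, minus strand) encodes a related inhibitor that is best known for restraining growth hormone signals through STAT5. It read 3.50, 1.48, 0.604 and 1.47 FPKM across Med23+/+ replicates 1 to 4, against 4.14, 3.28, 4.91 and 2.71 FPKM across Med23-/- replicates 1 to 4. Med23+/+ replicate 1 lay above 2 of the Med23-/- libraries, so the groups overlapped. The log2 difference was 0.86 (95% interval 0.24 to 1.49, limma adjusted p = 0.0418), but the call was lost when any library other than Med23+/+ replicate 1 or Med23-/- replicate 4 was left out. Over these 8 fits the limma adjusted p ran from 0.00551 without Med23+/+ replicate 1 to 0.102 without Med23-/- replicate 3, and the log2 difference from 0.64 to 1.13. It was 0.49 within replicates 1 and 2 and 1.23 within replicates 3 and 4.

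Bcl3 (chr7:19808462-19822770, minus strand), a partner of NF-κB proteins whose gene responds to STAT3 in several cell types, was not expressed at a level that could be compared. It is listed at 0 in the 4 Med23+/+ libraries and in Med23-/- replicate 1, and had 0.0332, 0.0308 and 0.0716 FPKM in Med23-/- replicates 2, 3 and 4. For the members tested, exact permutation of the 4 and 4 libraries (two-sided) gave its smallest possible p, 0.0286, for Lifr, Jak1, Stat3 and Socs3, and 0.0857 for Socs2, 0.171 for Il6st, 0.286 for Cntfr and 0.514 for Jak2, none adjusted for the 8 genes.

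**Figure D3:**
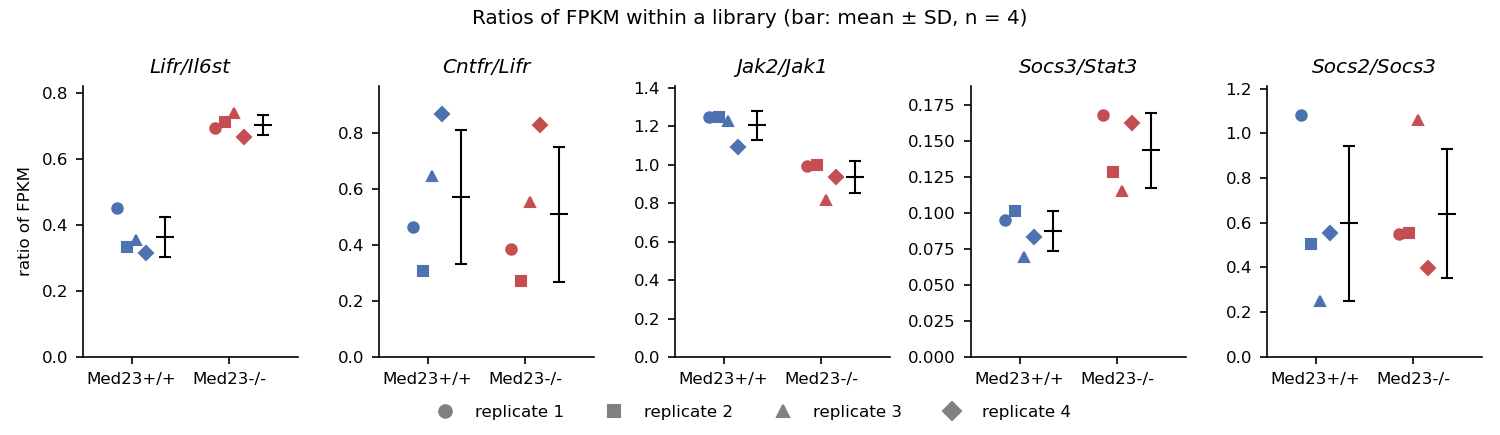
Ratios of FPKM between members within each library (linear axes from 0), blue for Med23+/+ and red for Med23-/- iOLs, with the mean ± SD beside each group. Lifr/Il6st and Socs3/Stat3 are higher and Jak2/Jak1 is lower in all 4 Med23-/- libraries, while Cntfr/Lifr and Socs2/Socs3 overlap.

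The order of the levels was nearly the same in both genotypes. In Med23+/+ iOLs it was Stat3, Il6st, Jak2, Jak1, Lifr, Cntfr, Socs3, Socs2, Osmr and Bcl3, and the libraries of Il6st and Jak2, of Cntfr and Socs3, of Socs3 and Socs2, and of Osmr and Bcl3 overlapped. In Med23-/- iOLs Jak1 stood second, at 21.8 FPKM, but overlapped Il6st at 20.5 FPKM, which in turn overlapped Jak2 at 20.3 FPKM. Cntfr at 7.48 FPKM, Socs3 at 6.22 FPKM and Socs2 at 3.76 FPKM again overlapped with their neighbours. Set against the genes tested, the mean of Stat3 was above that of 83.0% of them, Il6st above 67.7%, Lifr above 45.9%, Cntfr above 27.6% and Socs3 above 21.3%.

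Beyond the members, 5 lists of 73 other pathway genes were examined, of which 39 were tested, 7 were lower and 8 higher by adjusted p, beside 14.1% lower and 15.9% higher over all genes tested. Their median log2 difference was -0.03. The ligands of the family and its other receptors were almost silent. Of 12 genes on this list, only Cntf and Il11ra1 had a mean of 1 FPKM or more, and neither passed the test. Cntf, the ligand itself, was at 1.14 to 2.49 FPKM in Med23+/+ and 1.35 to 2.61 FPKM in Med23-/- libraries (log2 difference 0.12, limma adjusted p = 0.669), and under quantile normalization the sign of this difference turned. Osm and Il27 are listed at 0 in all 8 libraries, and Il6ra, the receptor subunit for interleukin 6, was at most at 0.16 FPKM. Lif, the ligand that acts through Lifr and Il6st without Cntfr, was weak but separated the genotypes. It is listed at 0 in Med23+/+ replicate 1, had 0.0718, 0.0315 and 0.0769 FPKM in the other Med23+/+ libraries, and read 0.405, 0.246, 0.460 and 0.497 FPKM across Med23-/- replicates 1 to 4. In the fit over all 18429 genes above 0 in at least 1 library its log2 difference was 0.42 (limma adjusted p = 0.00209). Lif was named after its values were seen.

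Among the other JAK and STAT genes, Stat5b rose and the rest did not pass the test. Stat5b, a STAT of growth factor and hormone signals, read 7.69, 7.65, 7.40 and 8.22 FPKM across Med23+/+ replicates 1 to 4, against 9.78, 10.6, 10.4 and 11.1 FPKM across Med23-/- replicates 1 to 4. The groups did not overlap (log2 difference 0.39, 95% interval 0.22 to 0.56, limma adjusted p = 0.00380), an amount close to that of Stat3. Tyk2, a kinase gene of the same family as Jak1 and Jak2, had a log2 difference of -0.15 (limma adjusted p = 0.312), and Stat2, a STAT of interferon signals, one of -0.14 (limma adjusted p = 0.290). Stat4 is listed at 0 in all 8 libraries, and Jak3, Stat5a and Stat6 were below a mean of 1 FPKM.

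Of 15 genes for SOCS and PIAS proteins and phosphatases, 14 were tested, 2 were lower and none was higher, beside 14.1% lower and 15.9% higher over all genes tested, so the share that was lower was near the background. The median log2 difference was -0.07. Ptpn1, a phosphatase that acts on JAK kinases, fell from 26.4 ± 1.71 to 21.8 ± 1.78 FPKM (SD, n = 4 each; log2 difference -0.27, limma adjusted p = 0.0345). Ptprt, a receptor phosphatase that acts on STAT3, fell from 32.2 ± 3.07 to 26.7 ± 1.16 FPKM (SD, n = 4 each; log2 difference -0.26, limma adjusted p = 0.0398). Neither call was firm, since Ptpn1 kept an adjusted p under 0.05 in 2 and Ptprt in 1 of the 8 fits that left out a library. Socs1 at 1.37 to 1.89 FPKM in Med23+/+ and 1.01 to 1.95 FPKM in Med23-/- libraries, and Cish at 1.61 to 2.30 and 1.14 to 2.71 FPKM, overlapped between the genotypes. Socs5 had the highest log2 difference of the list, 0.06.

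**Figure D4:**
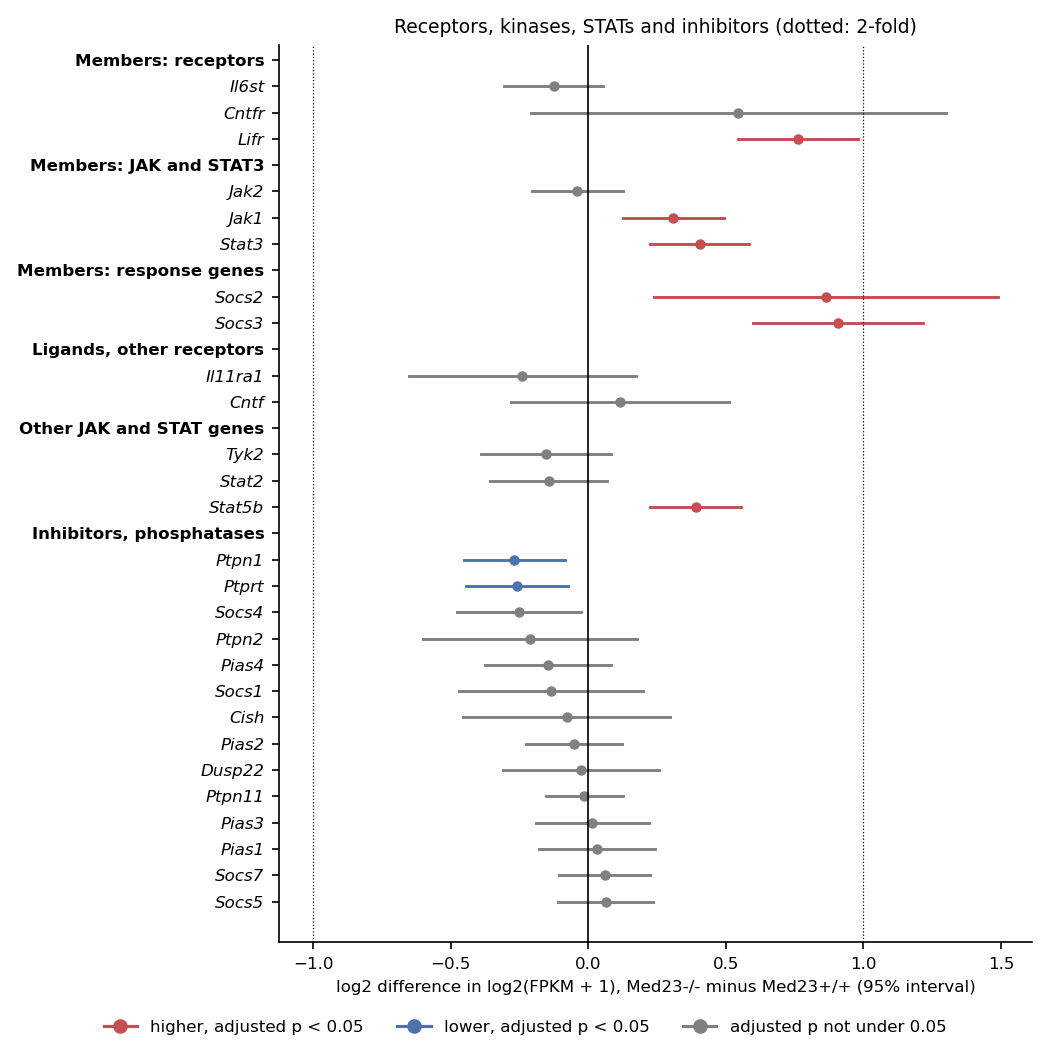
Difference between genotypes on the log2(FPKM + 1) scale (Med23-/- minus Med23+/+, limma, points with 95% intervals) for the tested members and for tested genes of 3 other lists, coloured where the adjusted p is under 0.05. Lifr, Jak1, Stat3, Socs2, Socs3 and Stat5b lie to the right of 0, Ptpn1 and Ptprt to the left, and no point reaches the dotted lines at 2-fold.

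Genes known to respond to STAT3 moved in both directions. Of 23 target genes on the list, 17 were tested, 6 were higher and 5 lower by adjusted p, and 3 each way also passed a fold change of 2. Over all genes tested, 15.9% were higher and 14.1% lower, or 2.98% and 1.75% with the fold change. With a filter of 5 FPKM the count of higher targets was 3. The median log2 difference was 0.36. Many of these genes answer to other signals as well, and the list was written from general knowledge.

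The higher targets were Ccnd1, Bcl6, Fos, Birc5, Pim1 and Nfkbiz, and the libraries of each separated the genotypes. Ccnd1, the gene of cyclin D1, which drives entry into the cell cycle, was at 44.9, 51.7, 40.2 and 58.2 FPKM in Med23+/+ and 130, 98.1, 126 and 202 FPKM in Med23-/- libraries (log2 difference 1.46, limma adjusted p = 0.000679). Bcl6, a transcriptional repressor, was at 2.15, 2.74, 2.81 and 2.83 FPKM in Med23+/+ and 7.25, 8.07, 5.81 and 9.46 FPKM in Med23-/- libraries (log2 difference 1.24, limma adjusted p = 0.000215). Fos, an immediate early gene of the AP-1 complex, rose from 2.46 ± 0.453 to 6.54 ± 2.12 FPKM (SD, n = 4 each; log2 difference 1.09, limma adjusted p = 0.00193). The survival kinase gene Pim1 rose from 1.39 ± 0.121 to 2.97 ± 0.738 FPKM (SD, n = 4 each; log2 difference 0.72, limma adjusted p = 0.00500). Log2 differences were 0.88 for Birc5, a mitotic gene, and 0.65 for Nfkbiz, a nuclear regulator of NF-κB.

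The lower targets were Pim3, Gfap, Vegfa, Myc and Hif1a, again without overlap between the genotypes. Pim3, which encodes a kinase closely related to that of Pim1, showed the largest difference of the list and in the opposite direction to Pim1. It read 102, 75.1, 82.8 and 80.4 FPKM across Med23+/+ replicates 1 to 4, against 16.5, 18.2, 12.2 and 9.32 FPKM across Med23-/- replicates 1 to 4 (log2 difference -2.55, 95% interval -2.96 to -2.13, limma adjusted p = 2.77e-05). Myc, a growth regulator, fell from 107 ± 3.44 to 55.8 ± 8.58 FPKM (SD, n = 4 each; log2 difference -0.94, limma adjusted p = 0.000309). Gfap, the intermediate filament gene that defines astrocytes and a classical target of CNTF and LIF, read 30.0, 10.8, 6.56 and 6.91 FPKM across Med23+/+ replicates 1 to 4, against 2.51, 2.33, 6.40 and 1.23 FPKM across Med23-/- replicates 1 to 4. The groups were narrowly apart and Med23+/+ replicate 1 was far above the others (log2 difference -1.70, limma adjusted p = 0.0222). The limma adjusted p of Gfap was 0.0525 without Med23-/- replicate 1 and at the threshold without Med23-/- replicate 4, at 0.05 after rounding, and went down to 0.0122 in the other fits that left out a library. Gfap also stands among the astrocyte markers. Vegfa and Hif1a, an angiogenic factor gene and the gene of the hypoxia factor HIF-1α, had log2 differences of -1.07 and -0.55. Pim1, Birc5, Nfkbiz and Hif1a were named to complete these counts, after their values were seen. Vip, a neuropeptide gene that CNTF induces in neurons, is listed at 0 in all 8 libraries.

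Interferon response genes were mostly silent. Of 15 on this list, 2 had a mean of 1 FPKM or more, of which Irf9 did not pass the test (log2 difference -0.07, limma adjusted p = 0.787, with a sign that turned under sample weights). Ifit2 rose, from 3.26, 4.06, 2.06 and 2.86 FPKM across Med23+/+ replicates 1 to 4 to 6.46, 5.84, 5.94 and 8.90 FPKM across Med23-/- replicates 1 to 4 (log2 difference 0.95, limma adjusted p = 0.00297). Ifit1 and Ifit3, antiviral genes that interferon induces together with Ifit2, did not exceed 0.32 FPKM in any library.

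**Figure D5:**
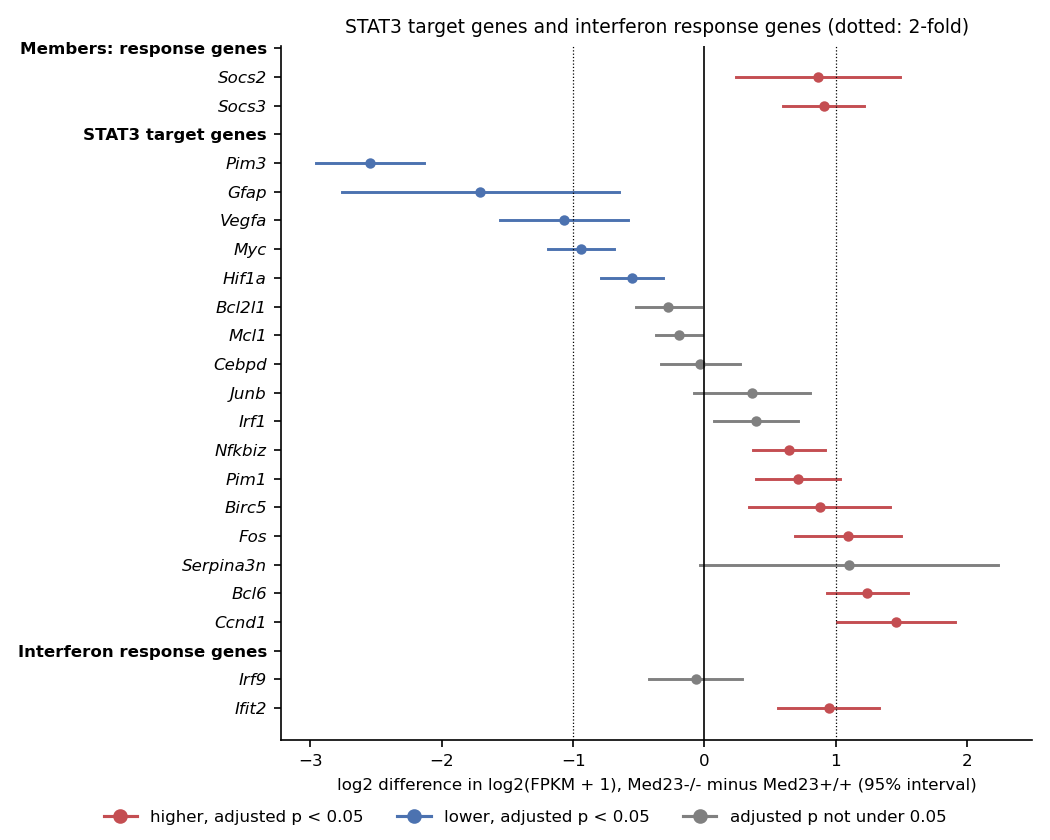
Difference between genotypes on the log2(FPKM + 1) scale (Med23-/- minus Med23+/+, limma, points with 95% intervals) for the tested members of the response group, STAT3 target genes and interferon response genes, red where higher and blue where lower with an adjusted p under 0.05. The STAT3 targets spread from -2.55 for Pim3 to 1.46 for Ccnd1, on both sides of Socs2 and Socs3.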

How the data were processed

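RNA-seq of 8 samples, 4 Med23+/+ and 4 Med23-/- by their titles, was used, and 0 library columns were left out. The authors ran FastQC and Cutadapt on the reads, mapped them with TopHat2 (genome mm10) and deposited FPKM values per library from Cuffdiff (options -b and -u). Tool versions, the annotation and the scaling between libraries are not given in the sources used here. The table also holds Cuffdiff means, fold changes and p-values per genotype, which were not used.

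FPKM values were compared as log2(FPKM + 1) with limma 3.58.1 in R 4.3.3 (lmFit, eBayes with trend) for genes whose mean reached 1 FPKM. The threshold was an adjusted p of 0.05, and a second rule also asked for more than 2-fold change. The limma step was tested on simulated data. Tables were made with Python 3.11.15, pandas 2.3.3 and numpy 2.4.6, and figures with matplotlib 3.10.9. Gene coordinates come from GENCODE vM21 and promoters from RefSeq on GRCm38.p6, for 9 of the 10 members. The search for GGGCGG was added after the data were seen.

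The members and lists were chosen with earlier results of these data known. All 10 members, Med23, genes of the lists past the adjusted p and a fold change of 2, in each list at most the 4 with the smallest adjusted p and those at the ends of its range, and genes listed at 0 are named, with genes among the 5 most like Socs3. Some results are not reported here. Kdr, Lif, Il6ra, Jak3, Stat5a, Stat6, Raver2, Socs1, Cish, Ifit1 and Ifit3 fall outside that rule and were named after their values were seen. The astrocyte markers S100b and Sox9 and the neuron marker Map2 were also named after their values were seen.

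Same-numbered libraries were checked for shared deviations from the genotype means and 2 of the 4 pairs had a correlation over 0.1, so they were not treated as paired. Alternatives changed the pseudocount, filter, scaling, variance trend, weights, covariates and libraries.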

Additional observations from a re-analysis of the deposited data

Results flagged for a closer look

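In 62 groups of 4 libraries, 2 for each of 31 named genes, 1 library stood apart from the others by Dixon's test in 2 cases, and chance flags about 1 in 20 groups. Bcl6 was at 2.15 FPKM in Med23+/+ replicate 1, against 2.74 to 2.83 FPKM in the other Med23+/+ libraries. Myc was at 43.2 FPKM in Med23-/- replicate 3, against 58.9 to 62.1 FPKM in the other Med23-/- libraries. Neither of these belongs to the 10 members, and both genes passed the test in each fit that left out a library, with limma adjusted p of at most 0.00112 for Bcl6 and 0.00156 for Myc.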

How the results depend on the processing

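Lifr, Jak1, Stat3 and Socs3 kept their direction and an adjusted p under 0.05 in each alternative in which they were tested, although Socs3 and Socs2 were left out by a filter of 5 FPKM. With that filter 3 members were higher rather than 5, 4 of the 73 other pathway genes rather than 8, and 1281 of all genes tested rather than 1957. Leaving out a library gave 4 to 5 members higher and 0 lower, 4 to 7 other pathway genes lower (7 with all libraries, 4 without Med23-/- replicate 1), 8 to 9 of them higher, 1225 to 1667 of all genes lower and 1556 to 1864 higher.

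The sign of small differences turned for Cntf under quantile normalization (-0.0467), for Irf9 under sample weights (0.0845) and for Jak2 under quantile normalization (0.0032). It also turned without 1 library for Irf9 (-0.19 to 0.0026) and Jak2 (-0.0729 to 0.0008). Socs2 had a limma adjusted p of 0.0708 after quantile normalization and of 0.0730 with all genes above 0 fitted, and the cause was not tested. Over 483 values of 29 genes under 17 alternatives, 450 kept direction and side of the threshold.

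Same-numbered libraries share only a number in the labels, and their deviations correlated at 0.130, -0.0960, -0.0260 and 0.159 for replicates 1 to 4. Between unlike numbers the lowest was -0.179, for Med23+/+ replicate 4 with Med23-/- replicate 1. The highest was 0.162, for Med23+/+ replicate 1 with Med23-/- replicate 2. With the replicate block 1835 genes were lower and 2085 higher, 5 members became 6 with Cntfr (log2 difference 0.55, limma adjusted p = 0.0173), and Ptpn1 missed the threshold. With replicates 1 and 2 against 3 and 4 as a covariate Cntfr had a limma adjusted p of 0.0504. Depth is unknown, so that Osmr, Bcl3, Lif and other genes under 1 FPKM are limited by few reads.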

Other observations

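Likeness between genes was described by Pearson's r of log2(FPKM + 1) after the genotype mean was removed, over 8 libraries that share their preparation and scaling. Among genes whose mean reached 5 FPKM, those most like Socs3 included Wdr46 (r = 0.991), Klf16 (0.983), Mvd (0.977) and Miip (0.963). They are the top of a search over all such genes with only 8 libraries. How high r would come out by chance in such a search was not tested. Socs3 was higher in Med23-/- iOLs, whereas Wdr46 (log2 difference -0.44) and Mvd (-0.50), an enzyme of cholesterol synthesis, were lower, so likeness between replicates and direction between genotypes differed. Among the members, r ran from -0.917 for Jak1 and Socs3 to 0.714 for Cntfr and Il6st, and was 0.241 for Stat3 and Socs3.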
